A study of Mus musculus with 2 samples.

Results

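The SR proteins, the related Tra2 and Srrm proteins and the heterogeneous nuclear ribonucleoproteins (hnRNPs) are the RNA-binding proteins that steer the spliceosome towards or away from individual exons. Their genes were described here in CH12F3, a mouse B cell lymphoma line, and in CH12F3 cells labelled Lig4-/-, that is, with DNA ligase IV targeted. They were taken as the protein-coding rows of the deposited table whose symbol begins with Srsf and a digit, Hnrnp, or Srrm and a digit, or is Tra2a or Tra2b. This rule found 37 of 51831 genes: 11 Srsf genes, 2 Tra2 genes, 4 Srrm genes and 20 hnRNP genes. RNA came from cells grown with 10% serum, and each library was made from 5 µg of total RNA. The labels give 1 library per line, so nothing could be tested against replicates, and each difference is a description of these 2 libraries. The labels state neither a treatment nor whether the Lig4-/- line was a single clone.

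SR proteins carry RNA recognition motifs and a tail rich in arginine and serine. Bound to exonic enhancers, they recruit the U1 and U2 particles to nearby splice sites, and kinases of the SRPK and CLK families phosphorylate the tail. Many hnRNPs bind silencer elements and oppose this, although the outcome depends on position. Several of these genes keep their own protein in check by including an exon with a premature stop codon, which sends the transcript to nonsense-mediated decay. In B cells alternative processing sets, among others, the membrane or secreted form of immunoglobulin and the exon content of the phosphatase CD45.

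The values are FPKM as the authors deposited them, in which the fragments of a gene are divided by transcript length and by library size. Depth is unknown, so counting intervals could not be given. The FPKM of Lig4 itself was 0.13 in CH12F3 but 0.64 in the library labelled Lig4-/-. Both are below 1 FPKM, the limit used below for expressed genes. The targeted gene was thus not lower there, but values this low are a weak check of the label. Every direction therefore rests on the label. A single value per gene cannot show the loss of single exons. All 9 listed B cell markers were detected in both libraries, from 3.28 to 5142 FPKM in CH12F3 and from 4.93 to 9325 FPKM in the other. The 5 T cell markers summed to 9.87 and 5.94 FPKM, the 5 myeloid markers to 5.25 and 9.77 FPKM, the 3 stromal markers to 0.92 and 0.70 FPKM, and the 3 erythroid markers to 30.5 and 23.6 FPKM, all of it Hba-a1. Of the T cell markers, Cd4 was highest in CH12F3, at 7.42 and 2.64 FPKM, above the lowest B cell marker there. Trac was at 1.55 and 2.89 FPKM, Cd3g at 0.81 and 0.39, Cd8a at 0.06 and 0.02, and Cd3e at 0.03 and 0. The part of other cells in the values below was not tested. Where 2 FPKM values of a gene stand together below, that of CH12F3 comes first.

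The promoters of the genes at the extremes are shown first, since these genes were among the 4 with the highest ratios (Tra2a, Srsf10 and Srsf1) or were level or lower in the library labelled Lig4-/- (Srsf9, Hnrnpa1 and Hnrnpab). Each is the RefSeq window on GRCm38.p6 from 250 bases before to 50 bases after the annotated start, read 5′ to 3′ on the strand of the gene. Capitals mark any of the motifs searched on both strands, which here were the CCAAT box (CCAAT) and the TATA box (TATAAA). The Tra2a window is chr6:49264003-49264302 on the minus strand, the Srsf10 window chr4:135855821-135856120 on the plus strand, and the Srsf1 window chr11:88047123-88047422 on the plus strand. The Srsf9 window is chr5:115326927-115327226 on the plus strand, the Hnrnpa1 window chr15:103240147-103240446 on the plus strand, and the Hnrnpab window chr11:51606832-51607131 on the minus strand.
Tra2a: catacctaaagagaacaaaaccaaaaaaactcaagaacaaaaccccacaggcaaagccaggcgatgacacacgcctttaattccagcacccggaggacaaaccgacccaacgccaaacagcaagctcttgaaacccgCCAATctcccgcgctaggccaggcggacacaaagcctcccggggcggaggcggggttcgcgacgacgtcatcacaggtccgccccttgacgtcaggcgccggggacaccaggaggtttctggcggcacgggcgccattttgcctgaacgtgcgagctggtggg
Srsf10: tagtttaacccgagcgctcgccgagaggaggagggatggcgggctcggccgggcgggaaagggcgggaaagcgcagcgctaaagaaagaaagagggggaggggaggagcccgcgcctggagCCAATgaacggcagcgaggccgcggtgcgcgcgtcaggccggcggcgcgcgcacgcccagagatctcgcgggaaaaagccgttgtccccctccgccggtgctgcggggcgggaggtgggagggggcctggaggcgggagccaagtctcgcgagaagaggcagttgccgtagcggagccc
Srsf1: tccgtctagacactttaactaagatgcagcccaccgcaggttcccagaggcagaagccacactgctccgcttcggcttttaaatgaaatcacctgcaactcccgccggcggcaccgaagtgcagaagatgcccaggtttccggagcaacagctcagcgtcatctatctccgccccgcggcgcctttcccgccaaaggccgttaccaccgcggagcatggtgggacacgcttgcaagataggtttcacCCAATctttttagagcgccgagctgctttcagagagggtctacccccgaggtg
Srsf9: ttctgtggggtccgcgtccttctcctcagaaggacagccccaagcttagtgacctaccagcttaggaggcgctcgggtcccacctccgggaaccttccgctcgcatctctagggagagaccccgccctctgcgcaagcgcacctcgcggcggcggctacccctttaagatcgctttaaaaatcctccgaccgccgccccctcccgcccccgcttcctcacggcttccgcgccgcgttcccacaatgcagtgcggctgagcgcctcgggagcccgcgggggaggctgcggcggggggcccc
Hnrnpa1: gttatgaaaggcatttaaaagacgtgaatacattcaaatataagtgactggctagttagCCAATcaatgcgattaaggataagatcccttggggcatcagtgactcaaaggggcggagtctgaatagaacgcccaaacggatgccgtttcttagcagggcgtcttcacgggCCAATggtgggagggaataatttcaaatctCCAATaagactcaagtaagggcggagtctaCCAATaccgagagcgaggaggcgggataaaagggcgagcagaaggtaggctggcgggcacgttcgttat
Hnrnpab: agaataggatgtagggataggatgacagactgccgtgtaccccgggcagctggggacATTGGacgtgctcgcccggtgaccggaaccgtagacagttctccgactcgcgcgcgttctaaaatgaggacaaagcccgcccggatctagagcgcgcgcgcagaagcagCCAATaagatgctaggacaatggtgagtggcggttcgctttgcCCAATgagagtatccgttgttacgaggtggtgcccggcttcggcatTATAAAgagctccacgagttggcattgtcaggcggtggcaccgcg

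The windows had a GC content of 60% for Tra2a, 71.3% for Srsf10, 58.3% for Srsf1, 69% for Srsf9, 48.3% for Hnrnpa1 and 58.3% for Hnrnpab. They held 25, 38, 22, 32, 16 and 28 CpG pairs in the same order, against a median of 21 in windows of expressed genes. Windows were found for 35 of the 37 genes, 48 windows in all, because several genes have alternative starts. Their median GC content was 65.7%, against 60.7% over 10957 windows of expressed genes. The median was 65% for members with a ratio of 2-fold or more and 69.7% for members within 2-fold. A CCAAT box stood in 24 of the 48 windows (50%), against 37.4% of all 32851 windows of the same length. The ETS core CCGGAAG stood in 10 (20.8%), of 6 genes, against 8.86% of all windows. The Myc and Max E-box CACGTG stood in 5 (10.4%) against 7.15%, the NRF1 motif in 2 (4.17%) against 0.971%, the YY1 motif AAGATGGCG in none against 1.4%, and the TATA box in 4 (8.33%) against 13.6%. Windows of 1 gene can overlap, so they are not independent, and a match is a run of letters only. Unlike GC content, the motifs were compared with all windows, whose median GC content was 52.7%. Motif shares in windows of expressed genes were not computed, so the part of GC content and expression in these differences was not tested.

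A mean of at least 1 FPKM, the limit used for expressed genes, was reached by 34 of the 37. The other 3 were Srsf12, a relative of Srsf10, listed at 0 in both libraries, and Srrm3 and Srrm4, which drive neuronal microexon splicing and were at 0.03 and 0 FPKM (Srrm3) and at 0 in both (Srrm4). No expressed member was near that limit, since the lowest value in CH12F3 was 6.4 FPKM and the lowest in the library labelled Lig4-/- was 23.9 FPKM. As a log2 ratio of FPKM + 1, 16 of the 34 were higher by 2-fold or more in the library labelled Lig4-/- and none was at least 2-fold lower. The same was true of 21.0% and 4.09% of all 11437 expressed genes, and of 21.0% and 3.43% of the 10412 that code for protein. The median log2 ratio of the members was 0.99, against 0.17 over all expressed genes. Above 0 lay 30 of the 34 members and 6663 of the 11437 expressed genes.

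**Figure D1:**
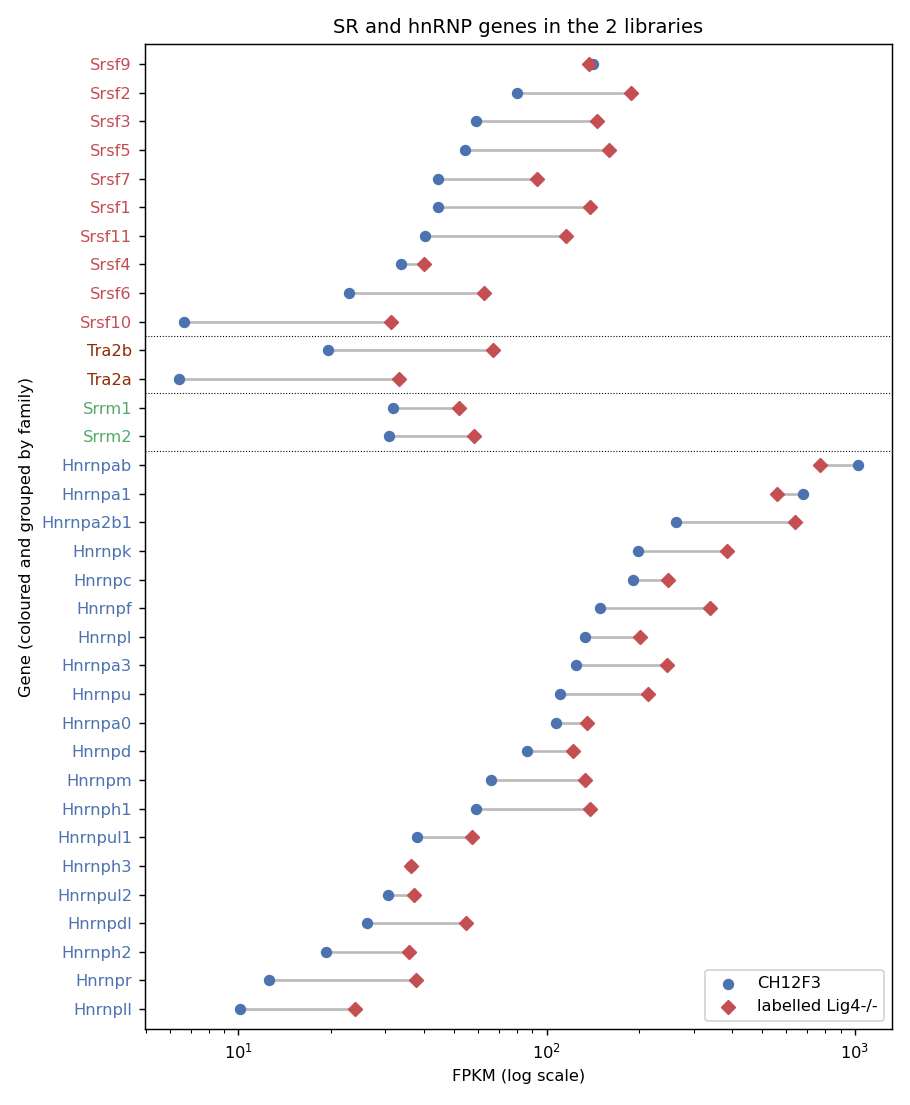
FPKM of the 34 expressed SR, Tra2, Srrm and hnRNP genes on a log scale, with 1 point per library (circles CH12F3, diamonds the library labelled Lig4-/-) and a line joining the points of a gene. In the SR and Tra2 rows, 11 of 12 diamonds lie to the right of their circle, while the most abundant hnRNP genes, Hnrnpab and Hnrnpa1, have the diamond to the left.

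With the median log2 ratio of all expressed genes set to 0, which shifts every gene by 0.17, 13 members were past 2-fold upwards and none downwards, against 16.4% and 6.79% of all expressed genes. Over all expressed genes that scaling changed the split from 2402 higher and 468 lower to 1871 and 777. Transcripts poor in G and C were mostly higher in the library labelled Lig4-/-, with Spearman's rho of -0.66 between log2 ratio and GC content over 10395 protein-coding genes, and 22 of the 34 members fell in the 3 GC deciles lowest in GC. In the lowest decile 8 of 11 members were at least 2-fold higher, against 68.4% of all genes there. In the next decile 3 of 6 were, against 53.4%, and in the third decile 2 of 5, against 34.6%. In the other 7 deciles 3 of 12 members were at least 2-fold higher: 1 of 1 in the fourth, 1 of 4 in the fifth and 1 of 2 in the sixth, against 23.0%, 13.8% and 6.67% of all genes there. The members are too few in a decile to read more from these counts. The log2 ratio of each member is therefore given below as deposited and after a smooth curve on the GC content of the longest annotated transcript was subtracted, called GC-adjusted. Some genes of the other splicing lists are given as deposited only. After that adjustment 2 members, Tra2a and Srsf2, were at least 2-fold higher and 1, Hnrnpa1, at least 2-fold lower, against 5.76% and 5.98% of the 11404 expressed genes with a GC content. The GC-adjusted median of the members was 0.27, and 21 of 34 lay above 0, as did 5610 of the 11404 genes.

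**Figure D2:**
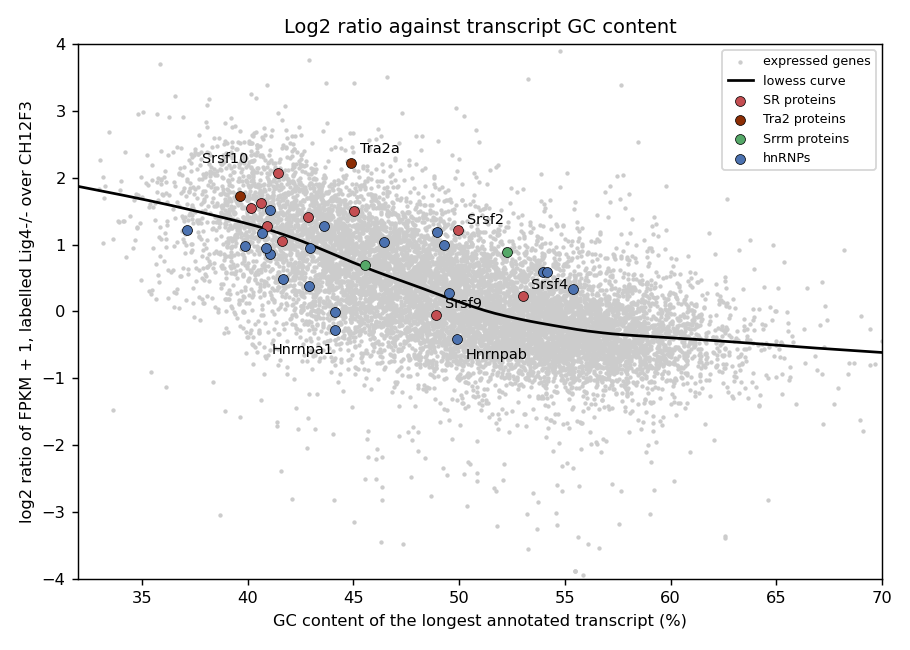
Log2 ratio of FPKM + 1 (library labelled Lig4-/- over CH12F3) against the GC content in percent of the longest annotated transcript, for expressed genes (grey), members by family (coloured) and the lowess curve (black). Of the 34 members, 22 lie in the 3 lowest GC deciles, and Tra2a and Srsf2 lie furthest above the curve while Hnrnpa1 lies furthest below it.

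The Tra2 pair had the highest median log2 ratio of the 4 families, 1.97, and 0.93 after GC adjustment. Tra2a and Tra2b are homologues of Drosophila transformer-2 and bind GAA-rich exonic enhancers. Tra2a (ENSMUSG00000029817, chromosome 6, 49243924 to 49264033 on the minus strand of GRCm38) was at 6.4 FPKM in CH12F3 and 33.3 FPKM in the library labelled Lig4-/-, a log2 ratio of 2.21 and GC-adjusted 1.47. It was the least abundant expressed member in CH12F3. Tra2b (ENSMUSG00000022858, chromosome 16) was at 19.5 and 66.98 FPKM, with a log2 ratio of 1.73 and GC-adjusted 0.39. Tra2b stayed the more abundant of the pair, with Tra2a at 0.328 times its FPKM in CH12F3 and 0.497 times in the other library.

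Of the 10 expressed SR genes, 8 were higher by 2-fold or more in the library labelled Lig4-/- and 2, Srsf4 and Srsf9, were within 2-fold. The share of all expressed genes past 2-fold upwards was 21.0%. After GC adjustment 1 of the 10, Srsf2, was at least 2-fold higher, against 5.76% of the 11404 expressed genes with a GC content. Srsf10, which turns into a general splicing repressor when dephosphorylated in mitosis or after heat shock, was at 6.67 FPKM in CH12F3 and 31.2 FPKM in the library labelled Lig4-/-. That is a log2 ratio of 2.07, or 0.89 after GC adjustment. Srsf10 and Tra2a were the only members at least 4-fold apart. Srsf1, the prototype SR protein and a proto-oncogene, was at 44.5 and 138 FPKM (log2 ratio 1.62, and 0.36 after GC adjustment). It lies on chromosome 11 (ENSMUSG00000018379, 88047373 to 88053755 on the plus strand).

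Srsf5 was at 54.3 and 159.97 FPKM (log2 ratio 1.54, and 0.24 after GC adjustment) and Srsf6 at 22.9 and 62.6 FPKM (1.41, and 0.40 after GC adjustment). Both have a pair of RNA recognition motifs, as does Srsf4, which differed less, at 33.8 and 39.95 FPKM (0.24, and 0.36 after GC adjustment). After this adjustment the 3 relatives lay between 0.24 and 0.40, but with the longest protein-coding transcript Srsf5 was at 0.66, Srsf4 at 0.57 and Srsf6 at 0.29. Srsf11, which contacts U2AF at the 3′ splice site, was at 40.3 and 116 FPKM (1.499, and 0.77 after GC adjustment).

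Srsf2, a classical marker of nuclear speckles also known as SC35, was at 80.4 FPKM in CH12F3 and 188 FPKM in the library labelled Lig4-/- (log2 ratio 1.21). It kept most of this difference after GC adjustment, at 1.07. Its whole span of 3194 bases lies within Mettl23 on the other strand, which went the other way, at 27.4 and 16.6 FPKM. Mfsd11, also on the other strand, overlaps 655 bases of Srsf2 and was at 22.3 and 11.9 FPKM. Srsf3, the smallest SR protein, was at 59.3 and 145 FPKM (1.28, and 0.05 after GC adjustment), and its close relative Srsf7, which has a zinc knuckle, was at 44.6 and 93.4 FPKM (1.05, and -0.11 after GC adjustment). Both lay near the curve for their GC content. Srsf9, a short relative of Srsf1, was at 142 and 137 FPKM (-0.05, and -0.32 after GC adjustment or 0.25 with the longest protein-coding transcript) and was the most abundant SR gene in CH12F3 but not in the other library, where Srsf1, Srsf2, Srsf3 and Srsf5 were above it.

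As deposited, the related genes Srsf1 and Srsf9 thus parted between the libraries. The FPKM of Srsf1 was 0.314 times that of Srsf9 in CH12F3 but 1.01 times in the library labelled Lig4-/-, a 3.22-fold change of the ratio, or 1.69 on the log2 scale. A ratio inside a library does not depend on how the libraries are scaled, but it does carry the GC trend. After GC adjustment the log2 ratios of Srsf1 and Srsf9 differed by 0.67, and with the GC content of the longest protein-coding transcript they were alike, at 0.23 and 0.25. The opening of both coding sequences, from GENCODE M21 on GRCm38, is printed to show their base composition, with every G and C in capitals. The Srsf1 stretch is chr11:88047839-88047958 and the Srsf9 stretch chr5:115327309-115327428, both on the plus strand, in the first coding exon, and 120 bases long.
Srsf1: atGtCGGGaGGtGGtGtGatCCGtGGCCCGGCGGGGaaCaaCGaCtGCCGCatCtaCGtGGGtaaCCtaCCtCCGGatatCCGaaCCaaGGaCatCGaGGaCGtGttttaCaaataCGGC
Srsf9: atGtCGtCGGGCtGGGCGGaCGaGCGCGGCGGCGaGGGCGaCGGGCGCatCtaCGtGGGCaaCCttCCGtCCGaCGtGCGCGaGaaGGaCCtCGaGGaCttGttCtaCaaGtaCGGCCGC

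Of these 120 bases, 69 were G or C in Srsf1 and 82 in Srsf9. Over the whole coding sequence the genes were alike, at 58.7% and 58.6% GC. They differed in the annotated 3′ untranslated region, which was 4152 bases long with 35% GC in Srsf1 and 364 bases long with 40.9% GC in Srsf9. Over the 34 expressed members, Spearman's rho of the log2 ratio was -0.53 with the GC content of the longest transcript, -0.28 with that of the coding sequence and -0.51 with that of the 3′ untranslated region. For the 12 SR and Tra2 genes the last 2 values were -0.46 and -0.48. Larger in size for these 12 genes was rho with transcript length, at 0.76, and with FPKM in CH12F3, at -0.71. For the 34 members those values were 0.31 and -0.44. Over expressed protein-coding genes rho was -0.58 with the GC content of the coding sequence (10378 genes) and -0.63 with that of the 3′ untranslated region (10354 genes). With transcript length it was 0.30 (10395 genes), and with FPKM in CH12F3, which is part of the ratio, -0.49 (10412 genes). These values describe genes measured in the same 2 libraries and are given without a p. The median GC content of the longest transcript was 43.9% for the members and 49.9% for expressed protein-coding genes.

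The Srrm genes encode large serine- and arginine-rich scaffolds without a classical RNA recognition motif. Srrm2, the core scaffold of nuclear speckles, was at 30.9 FPKM in CH12F3 and 57.99 FPKM in the library labelled Lig4-/- (log2 ratio 0.89, and 0.96 after GC adjustment), just short of 2-fold on both scales. Its partner Srrm1, a splicing coactivator, was at 31.7 and 52 FPKM (0.70, and 0.04 after GC adjustment). With the longest protein-coding transcript of Srrm1 the adjusted value was 0.67, so the size of its remaining difference depends on the transcript used.

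**Figure D3:**
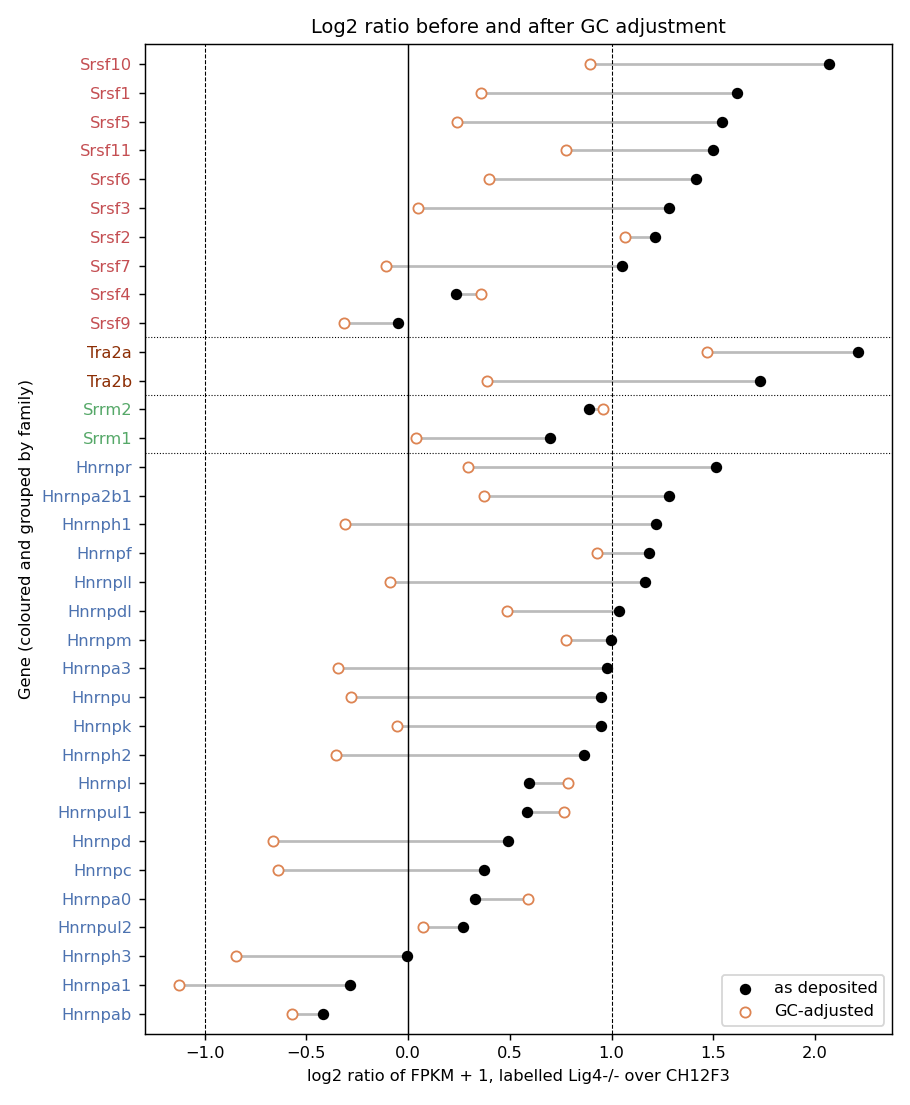
Log2 ratio of FPKM + 1 (library labelled Lig4-/- over CH12F3) for each expressed member, as deposited (filled) and GC-adjusted (open), grouped by family, with dashed lines at 2-fold. As deposited, 8 of 10 SR genes and 6 of 20 hnRNP genes lie beyond the upper dashed line, and after adjustment Tra2a and Srsf2 do.

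All 20 hnRNP genes were expressed, and 6 were higher by 2-fold or more in the library labelled Lig4-/-, none lower, near the 21.0% of all expressed genes past 2-fold upwards. Their median log2 ratio was 0.91. Scaling both libraries to the same FPKM total put 10 of them past 2-fold. After GC adjustment the median was -0.0712, with 9 above 0 and 11 below. For the 12 expressed SR and Tra2 genes the medians were 1.46 and 0.37, with 10 of 12 above 0 after adjustment. The difference between the families was not tested, since genes are not replicates. Hnrnpr was highest among the hnRNP genes, at 12.6 and 37.7 FPKM (log2 ratio 1.51, and 0.30 after GC adjustment).

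The A and B group of hnRNPs, the most abundant nuclear RNA-binding proteins, showed both directions. Hnrnpa1, which binds UAGG silencers, was at 682 FPKM in CH12F3 and 560.3 FPKM in the library labelled Lig4-/- (log2 ratio -0.28, and -1.13 after GC adjustment). Hnrnpa2b1, its closest partner and a factor in mRNA transport, was at 262 and 641 FPKM (1.28, and 0.37 after GC adjustment). Their order was therefore exchanged: Hnrnpa1 was at 2.6 times the FPKM of Hnrnpa2b1 in CH12F3 and at 0.874 times in the other library. Both genes have nearly the same transcript GC content, 44.1% and 43.6%. Hnrnpa1 is known to have many processed pseudogenes, between which and the gene the authors' counting could have divided reads. This was not tested, for Hnrnpa1 or for other members, so the value of Hnrnpa1 is uncertain.

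Hnrnpa3 was at 124 and 246 FPKM (log2 ratio 0.98, and -0.34 after GC adjustment) and Hnrnpa0, which binds AU-rich mRNAs, at 108 and 136 FPKM (0.33, and 0.59 after GC adjustment). Hnrnpab, the most abundant member in both libraries, was at 1029 and 769 FPKM (-0.42, and -0.57 after GC adjustment). Hnrnpab and Hnrnpa1 were the members with the lowest ratios as deposited. Of all hnRNP FPKM, Hnrnpab held 30.5% in CH12F3 but 17.4% in the library labelled Lig4-/-, Hnrnpa1 20.2% and 12.7%, and Hnrnpa2b1 7.78% and 14.5%.

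Within the F and H group, which binds runs of G, Hnrnpf was at 149 FPKM in CH12F3 and 340 FPKM in the library labelled Lig4-/- (log2 ratio 1.19, and 0.93 after GC adjustment). Hnrnph1 was at 59.1 and 139 FPKM (1.22, and -0.31 after GC adjustment), and Hnrnph2, on the X chromosome, at 19.2 and 35.7 FPKM (0.86, and -0.35 after GC adjustment). The ratio of Hnrnph1 to Hnrnpf was nearly the same in both libraries, 0.397 and 0.409. Hnrnph3 was level, at 36.4 and 36.3 FPKM (-0.01, and -0.85 after GC adjustment), so Hnrnph1 went from 1.62 to 3.83 times its FPKM. Hnrnph1 has the lowest GC content of all members, 37.1% in its longest transcript but 45.4% in its longest protein-coding transcript. With the latter its adjusted value was 0.45.

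Hnrnpl and Hnrnpll bind CA-rich elements, and Hnrnpll drives the skipping of CD45 exons in activated lymphocytes. Hnrnpll was the hnRNP gene with the lowest FPKM in both libraries, at 10.1 and 23.9 FPKM (log2 ratio 1.17, and -0.09 after GC adjustment), and Hnrnpl was at 133 and 201 FPKM (0.59, and 0.79 after GC adjustment). As deposited Hnrnpll differed more, and after adjustment Hnrnpl did, although with the longest protein-coding transcript Hnrnpll was at 0.37. Hnrnpll lies 138 kb from Srsf7 on chromosome 17.

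Hnrnpd, known as AUF1 for its role in the decay of AU-rich mRNAs, was at 86.5 and 122 FPKM (log2 ratio 0.49, and -0.66 after GC adjustment). Its neighbour and relative Hnrnpdl, 54.6 kb away on chromosome 5, was at 26.2 and 54.9 FPKM (1.04, and 0.49 after GC adjustment). The neighbours thus differed in size of ratio, and Hnrnpdl was the member closest above 2-fold. Hnrnpc, which binds U tracts in nascent RNA, was at 191 and 247 FPKM (0.37, and -0.64 after GC adjustment), and Hnrnpk, which binds C-rich RNA, was at 199 and 385 FPKM (0.95, and -0.06 after GC adjustment).

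Hnrnpm was at 66.2 and 133 FPKM, with a log2 ratio of 0.999, just under 2-fold on the FPKM + 1 scale (GC-adjusted 0.78). Hnrnpu, a scaffold protein that ties RNA to chromatin, was at 110.4 and 214 FPKM (0.95, and -0.28 after GC adjustment). As deposited its paralogues had lower ratios, but after GC adjustment they lay above it. Hnrnpul1 was at 37.97 and 57.4 FPKM (0.58, and 0.77 after GC adjustment) and Hnrnpul2 at 30.7 and 37.2 FPKM (0.27, and 0.07 after GC adjustment), and both proteins take part in the response to DNA breaks in human cells.

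**Figure D4:**
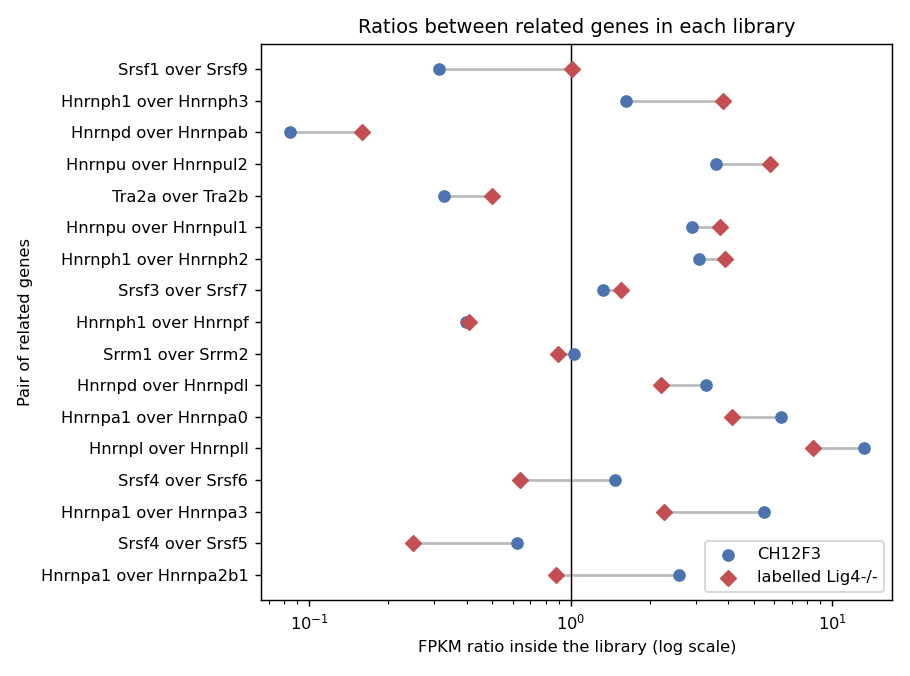
FPKM ratio between related genes inside each library on a log scale (circles CH12F3, diamonds the library labelled Lig4-/-), with a vertical line at 1. Hnrnpa1 over Hnrnpa2b1 crosses from 2.6 to 0.874 and Srsf1 over Srsf9 goes from 0.314 to 1.01, while Hnrnph1 over Hnrnpf stays near 0.4.

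The highest and lowest members were closer together in the library labelled Lig4-/-. On the FPKM scale the highest was 161 times the lowest in CH12F3 and 32.2 times in the other library. The span of all expressed genes was not computed. Over 10412 expressed protein-coding genes, too, the log2 ratio fell with FPKM in CH12F3 (Spearman's rho -0.49). These spans and the shares and percentiles that follow carry no GC adjustment. The members held 0.4% of the FPKM of all genes in CH12F3 but 0.616% in the library labelled Lig4-/-, and the median member stood at percentile 79.8 and 91.4 of expressed genes. The SR genes went from 0.053% to 0.119% and the hnRNP genes from 0.338% to 0.474%. Of the 10 highest members 9 were shared between the libraries. Srsf9, at rank 7 in CH12F3, was at rank 15 in the other library. Without replicates, neighbours in this order cannot be separated from one another.

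Annotated transcripts that end in nonsense-mediated decay were frequent among these genes. At least 1 such transcript is annotated in GENCODE M21 for 25 of the 37 members (67.6%), for 11 of the 13 SR and Tra2 genes (84.6%) and for 10 of the 20 hnRNP genes (50%). Among expressed protein-coding genes the share is 30.3%. Transcripts with a retained intron are annotated for 28 of the 37 (75.7%), against 60.9%. The members have a median of 7 annotated transcripts and expressed protein-coding genes 5. The median is 7 for the SR and Tra2 genes and 8 for the hnRNP genes. The part of transcript number in these shares was not tested. The deposited value is 1 number per gene, so coding, decaying and intron-retaining transcripts were not told apart. In all, 9 members overlap another gene of at least 1 FPKM. Among them are Srsf2 with Mettl23 and Mfsd11, Hnrnpab with Phykpl (4.83 and 6.91 FPKM) and Hnrnpu with Cox20 (13.1 and 20.3 FPKM). With no stated strand setting, reads of the overlapping genes could have been shared.

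The proteins that modify SR proteins or work beside them were then described. Of 11 genes for SR protein kinases, phosphatase and import, 4 were higher by 2-fold or more in the library labelled Lig4-/- and none lower (median log2 ratio 0.56, and 0.01 after GC adjustment). The shares of all expressed genes were 21.0% higher and 4.09% lower. Prpf4b, a kinase of the precatalytic spliceosome, was at 1.24 and 12.97 FPKM (2.64, and 1.40 after GC adjustment), followed by the kinases Clk4, at 4.25 and 13.6 FPKM (1.48, and 0.07 after GC adjustment), and Clk1, at 12.8 and 31.96 FPKM (1.25, and -0.12 after GC adjustment). Tnpo3, the importin of SR proteins, was at 24.1 and 49.4 FPKM (1.01, and 0.58 after GC adjustment). Srpk1 was at 19.6 and 24.2 FPKM, whereas Srpk3 had the lowest ratio of the list, at 19.7 and 9.48 FPKM (-0.98, and -0.80 after GC adjustment). With the overall median set to 0, 2 genes of this list were at least 2-fold lower, Srpk3 and the phosphatase gene Ppp1ca (1021 and 563 FPKM). At that setting 6.79% of all expressed genes were.

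SR-related proteins that the naming rule does not take in had the highest median of the 11 other lists on both scales. Of 20, 9 were higher by 2-fold or more in the library labelled Lig4-/- and none lower, against 21.0% and 4.09% of all expressed genes. Their median log2 ratio was 0.95. After GC adjustment the median was 0.55 and 17 of 20 lay above 0. Against 5.76% of all expressed genes, 4 were then at least 2-fold higher: Luc7l3, Scaf11, Acin1 and Scaf4. Luc7l3, a U1-associated protein, was at 5.78 and 35.8 FPKM (log2 ratio 2.44, and 1.28 after GC adjustment). Rbm25 was at 5.11 and 30.1 FPKM (2.35, and 0.84 after GC adjustment), Bclaf1 at 7.55 and 32.9 FPKM (1.99, and 0.64 after GC adjustment), and Scaf11 at 8.98 and 33.3 FPKM (1.78, and 1.26 after GC adjustment). These were all below 10 FPKM in CH12F3. Sugp1, with the lowest ratio, was at 36.6 and 22.5 FPKM (-0.68, and -0.91 after GC adjustment).

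**Figure D5:**
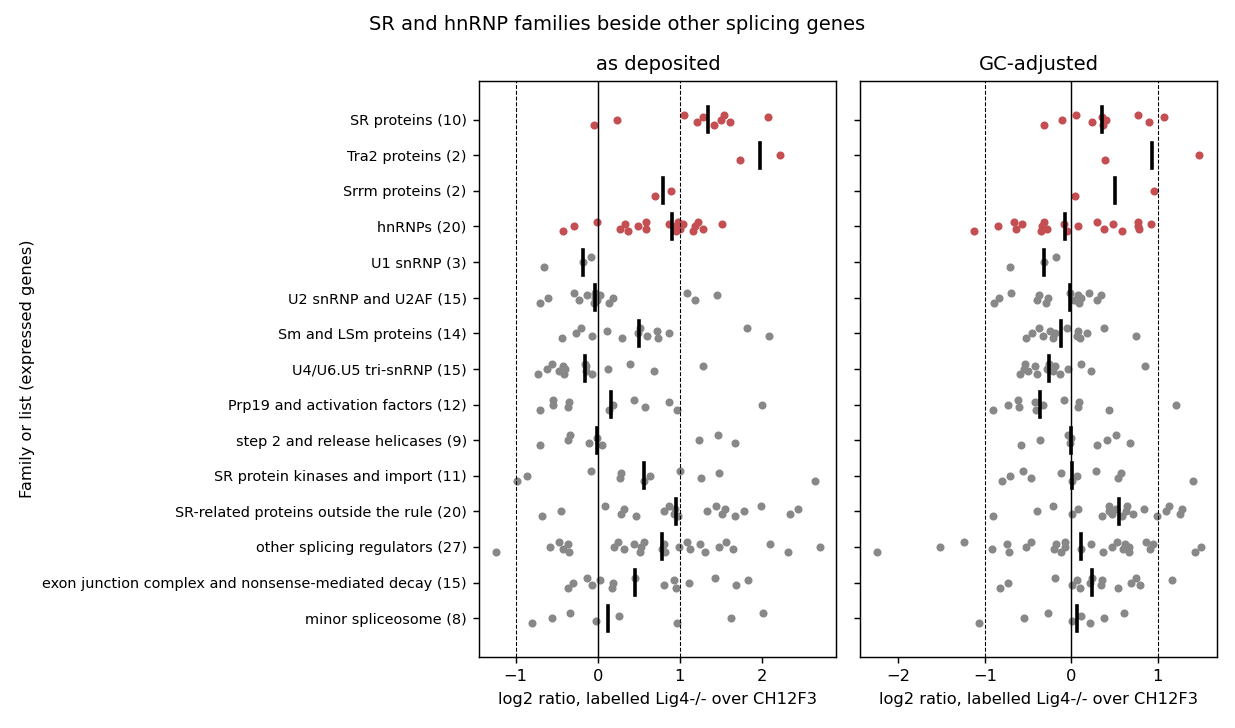
Log2 ratio of FPKM + 1 (library labelled Lig4-/- over CH12F3) for the expressed genes of each family of the rule (red) and of other splicing lists (grey), as deposited on the left and GC-adjusted on the right, with black bars at medians, dashed lines at 2-fold and the number of expressed genes in brackets. The SR-related list has a median of 0.95 and 0.55 on the left and right, and the U4/U6.U5 list of -0.15 and -0.26.

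Among regulators of other families, 27 of 31 were expressed (median log2 ratio 0.78, and 0.11 after GC adjustment). Of these, 10 were higher by 2-fold or more in the library labelled Lig4-/- and 1 lower, against 21.0% and 4.09% of all expressed genes. Qk, the quaking protein, was at 0.88 and 11.3 FPKM (2.71, and 1.503 after GC adjustment), Ptbp3, a polypyrimidine tract binder, at 2.76 and 17.7 FPKM (2.31, and 0.91 after GC adjustment), and the nuclear matrix protein gene Matr3 at 10.9 and 49.6 FPKM (2.09, and 0.67 after GC adjustment). The muscleblind gene Mbnl2 followed at 1.41 and 6.57 FPKM (1.65, and 1.43 after GC adjustment). In CH12F3 Qk was below 1 FPKM, so its mean reached the limit for expressed genes only through the other library. Pcbp2, a poly(C) binder related to Hnrnpk, was the gene that was lower, at 515 and 217 FPKM (-1.24, and -2.25 after GC adjustment).

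The 6 lists of core spliceosome proteins had medians as deposited between -0.17 and 0.50, below those of the kinases, the SR-related proteins and the other regulators. Their counts past 2-fold stand beside 21.0% higher and 4.09% lower of all expressed genes. The U1 proteins were all slightly lower, from Snrnp70 at 292 and 186 FPKM (log2 ratio -0.65, and -0.31 after GC adjustment) to Snrpc at 199 and 188 FPKM (-0.08, and -0.71 after GC adjustment). The 15 genes of the U2 particle and U2AF had a median of -0.03 (GC-adjusted -0.01), with Snrpb2 (7.79 and 23.0 FPKM, 1.45), Sf3b1 (24.4 and 56.6 FPKM, 1.18) and Sf3b6 (21.3 and 46.5 FPKM, 1.09) at least 2-fold higher and Sf3a2 (139 and 84.96 FPKM, -0.71) lowest. The 3 higher genes of the 15 were near the share of all expressed genes. After adjustment none of the 15 was 2-fold apart, with Snrpb2 at 0.09, Sf3b1 at 0.08 and Sf3b6 at -0.01. The U4/U6.U5 list had 11 of 15 below 0 and, after adjustment, 12 of 15, with a median of -0.15 and -0.26. It ran from Sart1, at 35.2 and 20.9 FPKM (-0.73), to Snrnp27, at 26.9 and 66.7 FPKM (1.28), the 1 gene of the list at least 2-fold higher.

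Of the 14 Sm and LSm genes, Lsm8 (7.9 and 36.8 FPKM, log2 ratio 2.09, GC-adjusted 0.75) and Lsm5 (36.5 and 131 FPKM, 1.81, GC-adjusted 0.07) were at least 2-fold higher and Lsm4 had the lowest ratio (335 and 247 FPKM, -0.44), with a median of 0.50 and GC-adjusted -0.12. The Prp19 list had a median of 0.16 (GC-adjusted -0.37) over 12 genes. It ran from Xab2, at 51.1 and 31 FPKM (-0.70), to Cwc22, which loads the exon junction complex, at 4.17 and 19.7 FPKM (1.999, and 1.21 after GC adjustment). Late-acting factors had a median of -0.0034 over 9 genes, from Tfip11, at 33.1 and 20 FPKM (-0.70), to Cdc40, at 3.51 and 13.3 FPKM (1.67, and 0.68 after GC adjustment). Dhx15, at 19.9 and 56.9 FPKM, and Prpf18, at 4.25 and 11.4 FPKM, were the others at least 2-fold higher there, with 1.47 and 1.23 (GC-adjusted 0.52 and 0.41).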

How the data were processed

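FPKM values per gene, with 2 decimals, were deposited by the authors for 53873 features and used as deposited, with no further scaling. The submitters' processing notes name CASAVA, TopHat and the build GRCh38, a human build, although 51912 identifiers are mouse Ensembl identifiers; the FPKM program, its annotation release and any strand setting were not given in the sources used here. The 1961 assembled loci were not used. Symbols, types, positions, lengths and GC contents came from GENCODE M21 (GRCm38), and promoters from RefSeq. Of identifiers with a common symbol only that with the highest mean FPKM was used, leaving 51831 genes.

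The log2 ratio is log2((FPKM labelled Lig4-/- + 1) / (FPKM in CH12F3 + 1)), which understates differences of low genes. Genes with a mean of at least 1 FPKM were called expressed. The GC adjustment subtracted a lowess curve (fraction 0.3, statsmodels 0.14.6) on the longest transcript, fitted to all 11404 expressed genes with a GC content and tested on simulated data. The members and splicing lists were chosen with earlier results of these data known. Every member is named; of each other list the genes with the highest and lowest log2 ratio and up to 3 more at least 2-fold apart are named by rule, and any other gene there was picked with its values known. With 1 library per group no test was made. Whole reads were sought in low values of single-transcript genes: at the best of many steps 30.6% and 33.2% of values lay within 0.1 of a whole multiple, where 20% would by chance at a fixed step, so depth is unknown. Protein sequence features were not analysed here. Alternatives were other pseudocounts, scalings, filters and thresholds, a GC and length adjustment and, chosen after seeing the data, GC content of the longest protein-coding transcript.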

Additional observations from a re-analysis of the deposited data

How the results depend on the processing

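No paired analysis was possible because each line had 1 library, and no library could be left out. The count of members at least 2-fold higher (16) stayed between 13 and 20 under the other pseudocounts, scalings and filters, with none lower. It was 24 at a 1.5-fold threshold and 2 at a 4-fold threshold. With the GC adjustment it was 2, with the GC and length adjustment 3 and with the longest protein-coding transcript 2, each with 1 lower; the cause was not tested. The median log2 ratio of the members (0.99) was 0.82 with the overall median set to 0, and 0.27, 0.16 and 0.33 under these 3 adjustments. That of the hnRNP genes turned to -0.0712 and -0.11 under the first 2, and their count at least 2-fold higher was 10 when both libraries had the same FPKM total. Among single members that were at least 2-fold higher, Hnrnph1 turned to -0.31 and -0.39, Hnrnpll to -0.087 and -0.17, and Srsf7 to -0.11 and -0.0152 under the GC and the GC and length adjustment, and with the longest protein-coding transcript Srsf7 turned to -0.23 and Srsf3 to -0.17. Tra2a and Srsf2 were at least 2-fold higher under every setting tried, and 13 members were so under every setting without a GC adjustment.

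Over the other splicing lists together, 2-fold was passed by 39 of 149 genes upwards and by 1 downwards, against 21.0% and 4.09% of all expressed genes. All 3 adjustments gave 9 higher and 4 lower, where the GC adjustment gave 5.76% and 5.98% of all expressed genes. The count lower was 2 with a pseudocount of 0.1 FPKM or upper quartile scaling and 3 with the median set to 0. Over all expressed genes the counts of 2402 higher and 468 lower were 1104 and 252 with a pseudocount of 5 FPKM, 3874 and 1636 at 1.5-fold, and 358 and 86 at 4-fold. The count lower was 777 with the median set to 0, and the count higher was 1589 with a mean of at least 5 FPKM and 657, 611 and 500 under the 3 adjustments, where the median log2 ratio of all genes turned to -0.0116, -0.0098 and -0.0155. Depth is unknown, so differences among members near 10 FPKM are less certain than those among abundant ones.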

Other observations

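The exon junction complex and the nonsense-mediated decay factors, which act on the decaying transcripts of many SR and hnRNP genes, held 4 of 15 genes that were higher by 2-fold or more in the library labelled Lig4-/-, and none lower, near the 21.0% of all expressed genes. Their median log2 ratio was 0.46 and GC-adjusted 0.24, with 12 of 15 above 0 after adjustment. Upf3b was at 4.12 and 17.2 FPKM in CH12F3 and the other library (log2 ratio 1.83, GC-adjusted 0.80), Upf2 at 2.24 and 9.39 FPKM (1.68, GC-adjusted 0.75), the kinase gene Smg1 at 2.09 and 7.32 FPKM (1.43, GC-adjusted 0.69) and Magohb at 10.8 and 24.4 FPKM (1.11, GC-adjusted 0.01). Upf1, the helicase of the pathway, was at 14.0 and 25.3 FPKM (0.81) and was the 1 gene of the list at least 2-fold higher after adjustment, at 1.16, against 5.76% of all expressed genes. Upf3a, a paralogue of Upf3b, went the other way, at 19.97 and 15.3 FPKM (-0.36, GC-adjusted -0.73).

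The minor spliceosome, which removes the rare U12-type introns, had a median of 0.12 over 8 expressed genes (GC-adjusted 0.06). Rnpc3, at 0.98 and 6.98 FPKM (2.01, GC-adjusted 0.21), and Snrnp48, at 4.82 and 16.9 FPKM (1.62, GC-adjusted 0.38), were at least 2-fold higher, and Snrnp25 had the lowest ratio, at 274 and 157 FPKM (-0.80, GC-adjusted -0.55). Those 2 of 8 were near the 21.0% of all expressed genes past 2-fold upwards. In CH12F3 Rnpc3 was below 1 FPKM, so its mean reached the limit for expressed genes only through the other library. Zrsr2, level at 11.3 and 11.1 FPKM (-0.02), was at -1.07 after adjustment.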
